A study of Mus musculus with 4 samples.

Results

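The Oogenesin and PRAME-like genes were followed through mouse oocyte growth. They comprised 10 of the 25587 genes listed with RNA-Seq values, namely Oog1, Oog2, Oog3, Oog4, Pramef12, Pramel1, Pramel4, Pramel5, Pramel6 and Pramel7. The genes were selected by name, with their values in these libraries already known, so that their levels and changes are given as a description and with no test. All 4 libraries came from wild-type C57BL/6Babr mice and were made from ribosomal RNA-depleted total RNA of pooled oocytes. NGOs were non-growing oocytes of 10 to 40 µm from mice at 5 days post-partum (dpp), GO1 were growing oocytes of 25 to 70 µm at 8 to 14 dpp, GO2 were growing oocytes of 50 to 70 µm at 15 dpp, and FGOs were fully grown oocytes above 70 µm at 20 dpp. The size range of GO1 overlaps with those of NGOs and GO2. Each stage was 1 library, so no spread between animals or pools was measured. NGO and FGO libraries were prepared by dUTP second-strand synthesis, and GO1 and GO2 libraries with a ScriptSeq kit, so changes were computed only within the dUTP pair (NGOs and FGOs) and the ScriptSeq pair (GO1 and GO2), and levels across the protocols were set side by side, where stage and protocol cannot be told apart.

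PRAME-family proteins are built of leucine-rich repeats and lie in rodents in large arrays of recent gene copies. PRAME itself, the human founder, is an antigen of testis and melanoma that acts as a substrate receptor of a CUL2 ubiquitin ligase and as a repressor of retinoic acid receptor signalling. The oogenesins are mouse members known for expression in oocytes and early embryos. In oocytes, transcripts made during growth are stored, and part of them is used after fertilization, when the genome of the embryo is still silent.

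The promoters of the oogenesins resembled each other and those of some further family genes. In RefSeq (GRCm38.p6), all 10 members had a promoter of 300 bases, from 250 before to 50 after the start, and those of Oog1, Oog2, Oog3 and Oog4 were 76.1 to 84.4% identical after global alignment. Closer still were Gm13023 to Oog1 (95.7%), C87977 to Oog1 (93.6%), Gm13084 to Oog2 (95.6%) and Gm13103 to Oog3 (85.5%). C87977 was 85.2%, Gm13023 84.7% and C87499 83.0% identical to Oog4. Promoter identity between an oogenesin and Pramef12 was 56.5 to 58.2%, near that between an oogenesin and Prame (52.9 to 58.5%). Pramel6 lay between, at 65.5 to 69.1% identity to the oogenesins, and Pramel4 and Pramel5 were 95.4% identical to each other. The longest string that the 4 oogenesin promoters shared, with up to 2 positions free (N), was ACAAAGGGANGNTTCAGCTGAAA. The string was derived from these promoters, so its presence in them is no finding. Searched on both strands of 32851 promoters of 300 bases, it was found in 6 (0.0183%), those of Oog1, Oog2, Oog3, Oog4, Gm13084 and Gm2042, and Gm13084 and Gm2042 are close copies of Oog2 and Oog1. Its last part, TTCAGCTGAAA, was in 17 promoters (0.0517%). It contains a match to CANNTG, the E-box bound by basic helix-loop-helix factors such as FIGLA. A CANNTG match is common, being in 72.3% of all promoters, and binding by FIGLA or any other factor was not tested. The last 120 bases before the RefSeq start are shown for the 4 oogenesins, with the shared string in capitals, and for Pramel6 and Pramef12, which do not contain it. All run 5′ to 3′ on the strand of the gene, and coordinates are GRCm38.
Oog1 (chr12:87602545-87602664, plus strand): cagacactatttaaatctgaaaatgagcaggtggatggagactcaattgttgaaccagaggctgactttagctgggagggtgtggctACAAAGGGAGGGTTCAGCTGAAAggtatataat
Oog2 (chr4:144190597-144190716, plus strand): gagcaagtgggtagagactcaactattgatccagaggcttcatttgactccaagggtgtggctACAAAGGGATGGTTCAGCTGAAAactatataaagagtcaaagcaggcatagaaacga
Oog3 (chr4:144162652-144162771, minus strand): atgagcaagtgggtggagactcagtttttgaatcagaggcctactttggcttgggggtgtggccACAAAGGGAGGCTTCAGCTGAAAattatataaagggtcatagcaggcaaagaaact
Oog4 (chr4:143450325-143450444, minus strand): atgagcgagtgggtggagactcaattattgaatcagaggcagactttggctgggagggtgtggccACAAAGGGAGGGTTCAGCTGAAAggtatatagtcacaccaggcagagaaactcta
Pramel6 (chr2:87506445-87506564, plus strand): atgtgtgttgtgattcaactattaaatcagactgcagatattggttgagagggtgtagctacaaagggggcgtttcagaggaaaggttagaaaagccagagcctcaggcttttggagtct
Pramef12 (chr4:144408465-144408584, minus strand): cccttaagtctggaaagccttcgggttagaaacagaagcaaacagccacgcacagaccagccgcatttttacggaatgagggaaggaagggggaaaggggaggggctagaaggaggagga
The shared string began 33 bases before the start in Oog1, 57 in Oog2, 56 in Oog3 and 55 in Oog4. A search for fixed motifs on both strands found CANNTG in 10 of 10 member promoters, against 72.3% of all promoters. TATAAA was found in those of Oog2 and Oog3 (13.6% of all promoters). TAATTG, a site of the NOBOX type, was found in those of Oog3, Oog4 and Pramef12 (8% of all promoters), and TAATTA in none of the 10 (5.29% of all promoters). Among 22 promoters of other family genes, CANNTG was in 90.9%, TATAAA in 27.3%, TAATTG in 31.8% and TAATTA in 13.6%. These matches are descriptions of the letters in the windows.

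The values were RPKM, read counts corrected for exon length and library size, from which whole counts were recovered. Levels and changes are thus relative to the library, and amounts per oocyte were not measured. NGOs had 64010021 counts on genes, GO1 75548000, GO2 140509668 and FGOs 72864250. Between 2.94 and 3.55 counts stood behind each uniquely mapped read, and what a single count stands for is not given in the sources used here. The 95% intervals were therefore computed on counts divided by that number, which makes them wider, and are called intervals on reads. They cover counting error only. All 10 oocyte markers, among them Zp3, Gdf9 and Nobox, had at least 3 counts in every library, and their RPKM summed to 6288 in NGOs and to between 3919 and 4011 in the others. Single oocyte markers differed in direction. Bmp15 had 131 RPKM in NGOs and 414 in FGOs, whereas Figla had 102 and 20.6, which was past 4-fold (log2 change -2.25). Granulosa cell markers (7 genes) summed to 2.53, 2.36, 4.94 and 10.2 RPKM, in the order NGOs, GO1, GO2 and FGOs. All lists of 4 values below follow this order. Most of the FGO sum was Cyp19a1, with 0.518, 1.08, 3.13 and 6.08 RPKM. Foxl2 (0.0753 in NGOs and 0.0265 in FGOs) and Amhr2 (0.397 and 0.225) were lower in FGOs, and the other granulosa markers were higher. Stroma and theca markers (6 genes) summed to 5.51 RPKM in NGOs and to between 0.158 and 0.245 in the others, where Lum was at 0. Blood and immune markers (4 genes) summed to 1.81 RPKM in NGOs and to between 0.342 and 0.595 in the others, and Hbb-b1 was at 0 in GO1, GO2 and FGOs. Endothelium markers (3 genes) summed to between 1.81 and 9.81 RPKM, nearly all of it Pecam1. Pecam1 and Kdr were higher in FGOs than in NGOs, whereas Cdh5 went from 0.0408 RPKM in NGOs to 0 in FGOs. Markers of other cells thus differed between NGOs and FGOs in both directions, also within a list. Their part in the results below was not tested. In pooled oocytes, fewer oocytes with a transcript and less of it per oocyte cannot be told apart.

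Because each read was kept at 1 position only, the share of a transcript that also occurs in other genes bears on each level. Among windows of 100 bases from the annotated transcripts (GENCODE M21), 78% of those of Oog1 also occurred in another annotated gene, 77.3% in Gm2042 and 30% in Gm10436. Pramel4 shared 77.4%, nearly all with Gm13102. Oog2 shared 16.1% with Gm13084, Oog3 10.8% with the pseudogene Gm4350, and Pramel5 3.61% with Pramel4. Oog4, Pramef12, Pramel1, Pramel6 and Pramel7 shared none. With up to 2 mismatches, the share rose to 98.9% for Oog1, 91.3% for Pramel4, 48.5% for Oog2, 38.5% for Pramel5 and 27.2% for Oog3, and remained 0 for the other 5. Levels of Oog4 and Pramef12 therefore rest on windows found in no other annotated gene, whereas the counts of Oog1 and Pramel4 depend on where the aligner placed shared reads.

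**Figure D1:**
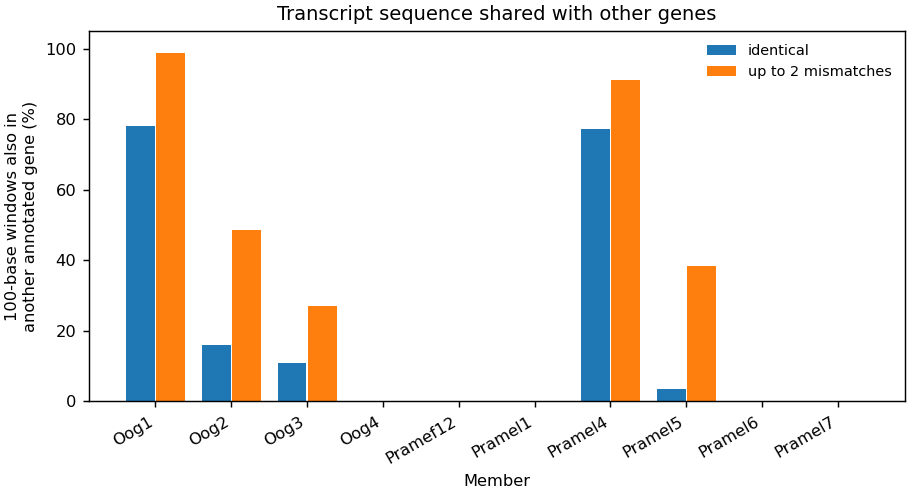
Share of the 100-base windows of each member's transcripts that also occur in another annotated gene, in %, for identical windows and for windows with up to 2 mismatches. Oog1 (78%) and Pramel4 (77.4%) stand apart, and 5 members have no bars because they share no window.

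Oog1, on chromosome 12 (87602688 to 87608845, plus strand), was the most abundant member in every library. Oogenesin 1 is known as a partner of RalGDS, an activator of Ral GTPases. NGOs had 121 RPKM (95% interval 118 to 124), GO1 505 (500 to 510), GO2 550 (546 to 554) and FGOs 706 (700 to 713). The level was lowest in NGOs and highest in FGOs, and no intervals overlapped. Even in NGOs, 99.0% of the detected genes, those with at least 3 counts, lay below it, and in FGOs 99.9% did. In the dUTP pair the scaled log2 change was 2.60 (2.56 to 2.63), which is 6.05-fold, and in the ScriptSeq pair it was 0.09 (0.07 to 0.11).

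The rows at the loci of both Oog1 copies on chromosome 12 were matched by position. The copy at 87954510 to 87960672, listed as CT954323.1 and annotated by GENCODE as Gm2042, had 6.11, 27.3, 27.9 and 27.3 RPKM. The copy at 88175589 to 88181894, listed as Gm2042 and annotated as Gm10436, had 1.44, 23.4, 28.2 and 17.2 RPKM. Oog1 held most of the counts of the 3 rows. NGOs had a share of 94.1% (93.5 to 94.6%), GO1 of 90.7% (90.4 to 91%), GO2 of 90.6% (90.4 to 90.8%) and FGOs of 94% (93.8 to 94.2%). The shares of Oog1 were close within the dUTP pair and within the ScriptSeq pair and differed between the pairs, where protocol and stage cannot be told apart. The copies themselves changed unequally from NGOs to FGOs. CT954323.1 went from 1217 to 5880 counts and the row listed as Gm2042 from 302 to 3906. The 3 rows summed to 129, 556, 606 and 751 RPKM, and the log2 change of their summed counts in the dUTP pair was 2.60, the value of Oog1 alone.

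Oog2 (chromosome 4, 144190719 to 144196934, plus strand) was the least abundant oogenesin. NGOs had 0.394 RPKM (0.266 to 0.56, 108 counts), GO1 8.3 (7.76 to 8.87), GO2 18.7 (18.1 to 19.3) and FGOs 15.4 (14.6 to 16.3). It was highest in GO2, unlike the other oogenesins, and no intervals overlapped. Its log2 change was 5.33 in the dUTP pair (4.83 to 5.92) and 1.14 in the ScriptSeq pair (1.03 to 1.25), where no member had a larger one. Gm13084, whose encoded protein is 97.9% identical to that of Oog2, had 33.4, 201, 224 and 242 RPKM. The ratio of Gm13084 to Oog2 was 84.8 in NGOs (59.4 to 126) and between 12 and 24.2 in the other libraries. With the counts of both rows summed, the log2 change was 3 in the dUTP pair and 0.19 in the ScriptSeq pair, so the size of the Oog2 change depends on reads being assigned to the right copy.

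Oog3 (chromosome 4, 144157557 to 144162663, minus strand) had the largest change of the 10. NGOs had 0.848 RPKM (0.628 to 1.12, 175 counts), GO1 79 (77 to 80.9), GO2 151 (149 to 153) and FGOs 171 (168 to 174). Only the NGO library was low, and no intervals overlapped. The transcript went from above 39.0% of detected genes in NGOs to above 99.3% in FGOs. Its log2 change was 7.70 in the dUTP pair (7.30 to 8.14), or 208-fold, and 0.90 in the ScriptSeq pair (0.86 to 0.94).

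Oog4 (chromosome 4, 143437164 to 143450324, minus strand), which shared no 100-base window with another gene, showed the same order. NGOs had 6.29 RPKM (5.68 to 6.94), GO1 66.8 (65 to 68.5), GO2 95 (93.5 to 96.5) and FGOs 128 (125 to 130). The intervals did not overlap, and NGOs were again far below the other libraries. Within the dUTP pair it changed by 4.40 on the log2 scale (4.25 to 4.55), or 21.1-fold, and within the ScriptSeq pair by 0.47 (0.43 to 0.52).

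Pramef12 (chromosome 4, 144391674 to 144408464, minus strand, Pramel13 in RefSeq), known for a role in male germ cells, was already abundant in NGOs. NGOs had 73.5 RPKM (71.6 to 75.4), GO1 88.4 (86.6 to 90.1), GO2 110 (108 to 111) and FGOs 112 (110 to 114). The intervals of GO2 and FGOs overlapped. Its log2 change was 0.66 in the dUTP pair (0.62 to 0.71), or 1.59-fold, and 0.28 in the ScriptSeq pair (0.25 to 0.31). It was above 98.1% of the detected genes in NGOs, next to Oog1 at 99.0%. Between 20905 and 68220 counts lay behind these values.

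**Figure D2:**
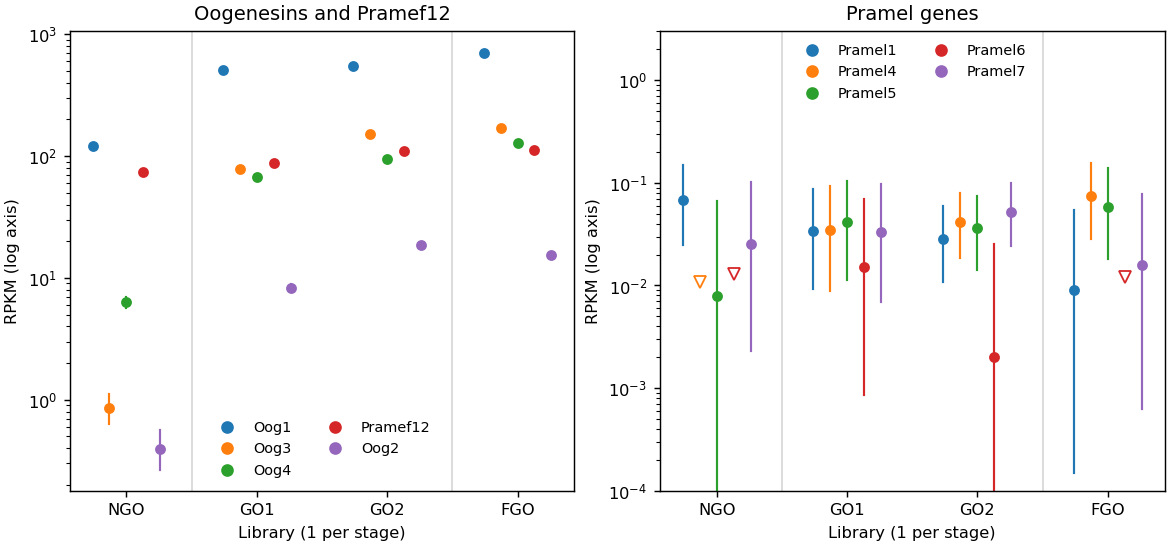
RPKM of each member (log axis) in the 4 libraries, 1 per stage, with 95% counting intervals on reads drawn as lines and cut at the lower edge of the axis. Open triangles mark the level of 3 counts for genes at 0, and grey lines separate the library protocols. The oogenesins are lowest in NGOs, Pramef12 lies between 73.5 (NGOs) and 112 RPKM (FGOs), and all Pramel genes lie below 0.1 RPKM.

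The 5 Pramel genes were at or near the limit of detection in all libraries, between 0 and 0.0739 RPKM. A count of 3, the limit used here, stood for 0.00445 to 0.013 RPKM in these genes. Pramel7 and Pramel6 lie 9.5 kb apart on chromosome 2 and are known from embryonic stem cells and blastocysts, where PRAMEL7 promotes degradation of the DNA methylation cofactor UHRF1. Pramel7 (87489087 to 87497093, minus strand) had 6, 9, 27 and 4 counts, or 0.0254, 0.0333, 0.0524 and 0.0157 RPKM. Pramel6 (87506565 to 87510872, plus strand) had 0, 4, 1 and 0 counts, and the upper limit of its RPKM in FGOs was 0.0504. The intervals of neighbouring libraries overlapped for both genes, so that no order of the stages could be read.

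Pramel1, Pramel4 and Pramel5 lie within the same chromosome 4 interval as Oog2, Oog3 and Oog4. Pramel1 (143394428 to 143400160, plus strand), known from testis and sperm, had 21, 12, 19 and 3 counts. It was the only member with its highest RPKM in NGOs, at 0.068 (0.0247 to 0.149) against 0.00898 in FGOs (0.000148 to 0.0547), and these intervals overlapped. Pramel4 (144059126 to 144069327, plus strand) had 0, 11, 25 and 22 counts, and Pramel5 (144270633 to 144280488, minus strand) 2, 12, 20 and 16. The encoded proteins of Pramel4 and Pramel5 are 86.2% identical. In FGOs, Pramel4 was at 0.0739 RPKM (0.0283 to 0.157) and Pramel5 at 0.0582 (0.018 to 0.139). Against the limit of 3 counts in NGOs, the FGO value of Pramel4 was 7.03-fold. This is not a lower bound of the change, as the interval on reads of its log2 change began at 0.26.

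Oog1, Oog2, Oog3, Oog4 and Pramef12 had at least 20 counts in NGOs and in FGOs. Of these 5, all 4 oogenesins were higher in FGOs by 4-fold or more and Pramef12 was within 4-fold, whereas 5.02% of the 13185 genes with such counts were higher and 3% were lower. With 20 counts required over the pair only, 8.56% of 15253 genes were higher and 5.52% were lower, and Pramel4 and Pramel1 also passed. Each passed through the library in which it was higher, so that the filter itself favoured a call, and they are given by their values. Pramel4 had 0 and 22 counts. Pramel1 had 21 and 3, with a log2 change of -2.51 whose interval on reads ran from -9.00 to 0.30 and which was -1.74 with a prior count of 5. The 3 members under the minimum were Pramel5 (2 and 16 counts), Pramel6 (0 and 0) and Pramel7 (6 and 4). Without the members that share at least 10% of their windows with another gene, Oog4 alone remained among those higher by 4-fold.

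Between GO1 and GO2, 9 members could be compared and none was past 4-fold. Of all 15728 genes, 1.53% were higher and 0.254% were lower, so the absence of a call among 9 genes is near the share over all genes. Only the oogenesins and Pramef12 had at least 20 counts in each of these libraries, where 0.296% of genes with such counts were higher and 0.0578% were lower. At a 2-fold threshold Oog2 was higher in GO2, as were 6.9% of all genes. Pramel1, Pramel4, Pramel5 and Pramel7 had log2 changes between -0.28 and 0.59, each with an interval on reads that included 0.

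**Figure D3:**
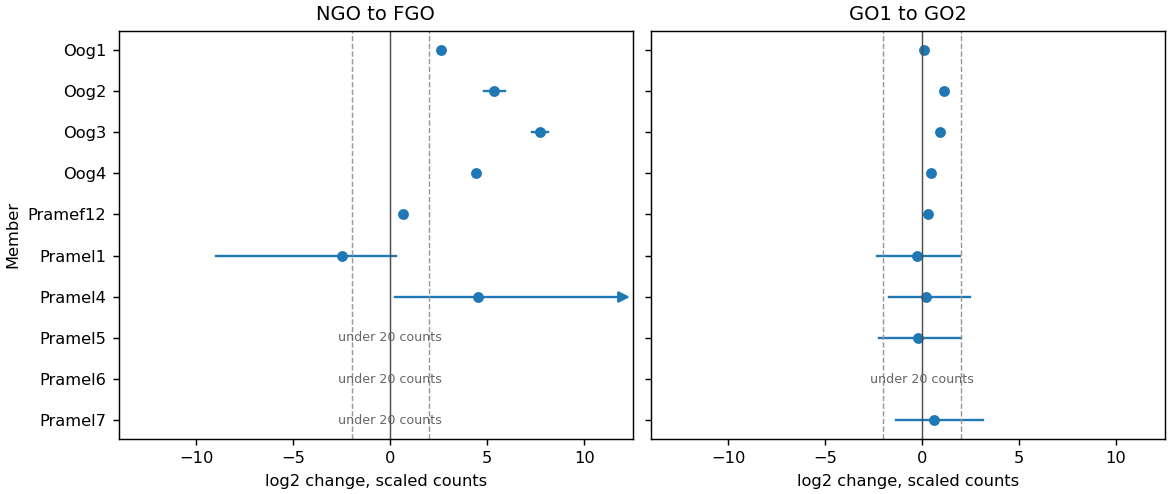
Scaled log2 change of each member in the dUTP pair (left) and the ScriptSeq pair (right), with 95% counting intervals on reads; dashed lines mark 4-fold and an arrow an interval with no upper end. Oog3 has the largest change from NGOs to FGOs (7.70). No member passes 4-fold in the ScriptSeq pair, where few of all genes do (1.53% higher and 0.254% lower).

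Of the 10 members, 6 had their highest RPKM in FGOs, 2 in GO2, 1 in GO1 and 1 in NGOs. The highest library stood apart from the next by its interval only for Oog1, Oog3 and Oog4 (FGOs) and Oog2 (GO2). Intervals overlapped for Pramef12, Pramel4 and Pramel5 (FGOs), Pramel7 (GO2), Pramel6 (GO1) and Pramel1 (NGOs), so their highest library is not settled. Of the 19004 genes detected in any library, 28.4% were highest in FGOs, 16.1% in GO2, 19.4% in GO1 and 36% in NGOs, also without regard to overlap. The RPKM was higher at each step from NGOs to GO1, GO2 and FGOs, with intervals apart, for Oog1, Oog3 and Oog4, against 2.57% of all genes. The same held for 9 of the 27 further rows of the family described below, so it was not particular to these members. This order crosses the change of library protocol.

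Ratios between members within a library do not depend on how libraries are scaled, and the pairs given here were picked after the values had been seen. The ratio of Oog1 to Pramef12 was 1.65 in NGOs (1.59 to 1.71) and 6.29 in FGOs (6.16 to 6.43), with 5.72 in GO1 and 5.01 in GO2. The ratio of Oog4 to Pramef12, the pair free of shared windows, was 0.0856 for NGOs (0.077 to 0.0948), 0.756 for GO1 (0.731 to 0.781), 0.865 for GO2 (0.847 to 0.883) and 1.14 for FGOs (1.11 to 1.17). Oog4 thus passed from below to above Pramef12. Among the oogenesins, the ratio of Oog3 to Oog4 was 0.135 in NGOs (0.0983 to 0.182) and between 1.18 and 1.59 in the other libraries. The ratio of Oog1 to Oog4 went from 19.3 in NGOs (17.4 to 21.4) to 5.53 in FGOs (5.4 to 5.65). The ratio of Oog3 to Oog2 went the other way, from 2.16 in NGOs (1.34 to 3.51) to 11.1 in FGOs (10.4 to 11.7).

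The order of the members by RPKM, which is per length, was Oog1, Pramef12, Oog4, Oog3 and Oog2 in NGOs. In GO1, Oog3 stood above Oog4, in GO2 it also stood above Pramef12, and in FGOs the order was Oog1, Oog3, Oog4, Pramef12 and Oog2. None of these neighbours had overlapping intervals, whereas the neighbours among the 5 Pramel genes had overlapping intervals in every library. The 10 members summed to 202, 748, 924 and 1132 RPKM. Their share of all counts on genes was 0.0732% (Wilson interval 0.072 to 0.0745%), 0.242% (0.24 to 0.244%), 0.308% (0.307 to 0.31%) and 0.358% (0.355 to 0.36%). Oog1 held between 59.5 and 67.6% of the summed RPKM. The share of Pramef12 was 36.3% in NGOs and 9.91% in FGOs, and that of Oog3 was 0.42% in NGOs and 15.1% in FGOs.

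**Figure D4:**
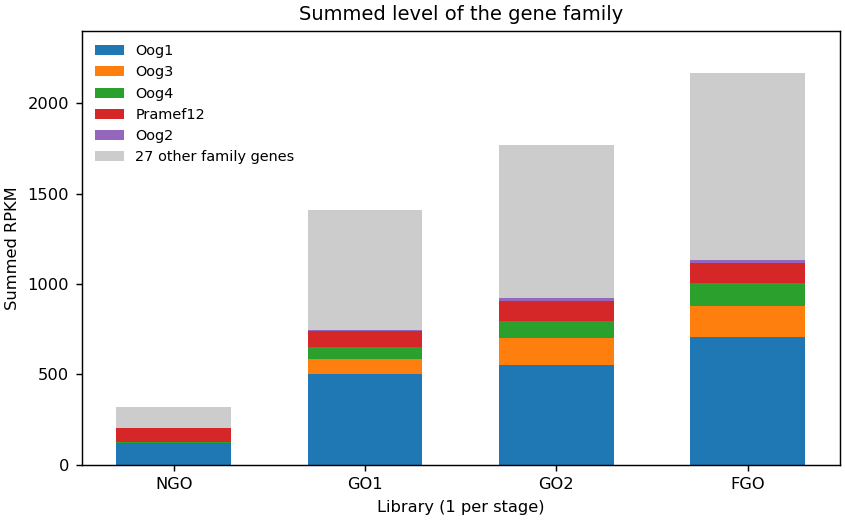
Summed RPKM in the 4 libraries, 1 per stage, split by the 5 abundant members and the 27 other family genes; the other 5 members are too low to be seen. The members sum to 202 in NGOs and 1132 in FGOs, and Oog1 is the largest part of them in each bar.

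The table held 27 further rows of the family, taken by symbol or RefSeq synonym. They summed to 116, 661, 844 and 1036 RPKM, close to the sum of the members except in NGOs. With at least 20 counts in NGOs and in FGOs there were 14 of them, of which 11 were higher by 4-fold or more and none was lower. Of all genes with such counts, 5.02% were higher and 3% were lower. Gm12794 (3 and 41 counts) and Gm13083 (0 and 88) passed the minimum only through FGOs. Reads shared between copies were not assessed for these rows. Between GO1 and GO2, 16 had at least 20 counts in each library and none was past 4-fold. This is near the share of all genes with such counts, of which 0.296% were higher and 0.0578% were lower. Gm13084 (given above) was the most abundant in every library. In FGOs it was followed by C87414, with 11, 112, 153 and 219 RPKM in the 4 libraries, and Gm13023, with 6.48, 87.9, 116 and 152. Gm13023 encodes a protein 92.5% identical to that of Oog1. C87499 had 10.6, 62.9, 78.8 and 87.8 RPKM, D5Ertd577e 17.1, 47.7, 71.8 and 78.4, Gm13088 3.79, 43.3, 49.7 and 70.2, and C87977 1.99, 29.8, 40.6 and 50. All were lowest in NGOs. Gm13125 had 22.5, 30.7, 46.2 and 74.4 RPKM, and Pramef8 7.02, 4.03, 5.78 and 8.79. Both were within 4-fold between NGOs and FGOs, Gm13125 at 3.43-fold and Pramef8 at 1.3-fold. B020004J07Rik (24 and 94 counts) was also within 4-fold, at 3.65-fold. The encoded protein of Gm13125 is the nearest to that of Pramel1 (44.2% identity, against 44.1% for Pramef12). That of Pramef8 is the nearest to that of Pramef12 (46.4%). The less abundant rows that reached 100 counts were Gm13103, Pramef17, Gm13089, Gm3259, B020004J07Rik and Gm12794, between 0.236 and 21.9 RPKM in FGOs. Prame, the mouse counterpart of the human gene, was at 0 in all 4 libraries.

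The 7 members on chromosome 4 lie between 143394428 and 144408464 (GRCm38), an interval of 1014 kb with 29 listed genes, of which 23 belong to the family by name. Of these 23, 13 were above 1 RPKM in FGOs, 9 were below 0.1 and 1 was between. Abundant and nearly silent genes were interspersed. Pramel1 lay 37.0 kb from Oog4, Pramel4 88.2 kb from Oog3, and Pramel5 73.7 kb from Oog2, while Oog3 and Oog2 were 28.1 kb apart. The 6 listed genes of the interval with no family name, among them the Pramel4 copy Gm13102, reached at most 0.24 RPKM in FGOs. Pramef12os, listed as D530049N12Rik on the opposite strand of the Pramef12 locus, shared no exon base with it and was at 0 in all libraries.

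**Figure D5:**
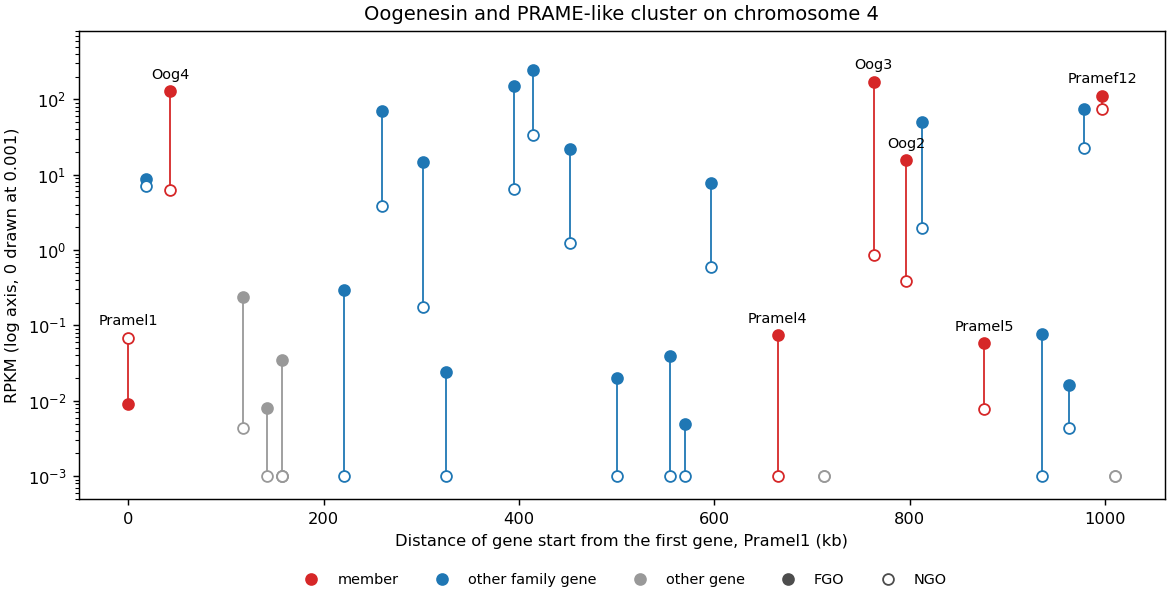
RPKM (log axis) in NGOs (open) and FGOs (filled) of the 29 listed genes of the chromosome 4 interval against the distance of their start from that of Pramel1 in kb; colours mark members, other family genes and other genes, and 0 is drawn at 0.001. Genes above 1 RPKM in FGOs (13 of 23 family genes) are interspersed with genes below 0.1.

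Promoters of 32 family genes could be set beside their levels. The 5 with the string shared by the oogenesins belonged to Oog1, Oog2, Oog3, Oog4 and Gm13084 and had FGO levels between 15.4 and 706 RPKM. The 27 without it had a median of 0.0766 RPKM in FGOs and ranged from 0 to 152, and 10 of them were above 1 RPKM. Genes without the string thus included abundant ones such as Pramef12 and Gm13023. The string was taken from genes known to be abundant, so this is a description.

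The encoded proteins of the members, translated from GENCODE coding sequences, had 458 to 503 residues. Among the oogenesins, identity ranged from 55.0% (Oog2 and Oog4) to 67.1% (Oog1 and Oog3). Pramel6 was nearest to Oog3 among the members, at 48.1%, and Pramel7 to Pramel4, at 38.7%. The members most alike in protein sequence, Pramel4 and Pramel5 (86.2%), were the ones near the limit of detection with nearly identical promoters.

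Known partners and targets of the family were measured in all libraries. Of the 9 genes, none was past 4-fold in either pair. Of all genes, 8.56% were higher and 5.52% lower in the dUTP pair, and 1.53% and 0.254% in the ScriptSeq pair. The absence of a call among 9 genes is near these shares. The largest log2 changes were -1.90 for Elob in the dUTP pair and 1.63 for Rarb (10 and 63 counts) in the ScriptSeq pair. Cul2, the scaffold of the ligase, had 6.49, 7.77, 6.38 and 5.24 RPKM. Its subunits were Rbx1 with 15 to 30.9 RPKM, Elob (listed as Tceb2) with 60.5 in NGOs and 14.1 to 18.4 in the others, and Eloc (listed as Tceb1) with 92.3 to 180. Uhrf1, which encodes the target of PRAMEL7, had 247, 179, 158 and 184 RPKM, next to a Pramel7 level of at most 0.0524. Ralgds, the partner of Oog1, had 9.44, 5.12, 5.65 and 8.07 RPKM. Of the retinoic acid receptors, Rara had 1.08 to 1.97 RPKM, Rarb 0.026 to 0.124 and Rarg 0.0726 to 0.23.

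Among the 13103 genes that reached 100 counts in any library, those with the most similar pattern over the 4 libraries were found by the largest absolute difference between mean-centred log2(RPKM + 0.01) values. For Oog1 they were Gm3286 (0.07), 1700024B05Rik (0.10) and Il10rb (0.13). Gm3286 had 0.502, 2.19, 2.43 and 2.86 RPKM. For Oog4 they were C87414 (0.07) and Gm13088 (0.16), which belong to the family, and AA792892 (0.17), which had 2.87, 30.4, 34.7 and 46.6 RPKM. For Oog3, AC165146.1 was nearest (0.17), at 2.52 RPKM in FGOs, followed by AU023070 (0.65) and Gm12511 (0.81). All 3 were at 0 in NGOs, where the likeness rests on the added 0.01.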

How the data were processed

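RNA-Seq of NGOs, GO1, GO2 and FGOs, 1 library each, was analysed. Paired-end reads were trimmed with Trim Galore 0.2.8 and mapped to GRCm38 with TopHat2 2.0.9, keeping 1 position per read. The authors deposited RPKM on a linear scale for 25587 genes. The table is titled as counts, and the program, annotation and strand setting behind them are not given in the sources used here. Columns of per-sample values beyond the 4 libraries: none.

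Whole counts were recovered by fitting each library total until RPKM gave whole numbers for genes with 1 exon (at least 99.6% of values above 0, tolerance 0.02 counts). The GENCODE M21 exon union fitted 9 of the 10 members. For Oog1 the smallest fitting length was used, which can lower its counts by a common factor but leaves RPKM as it is. The design had foreseen counts and RefSeq proteins, whereas recovered counts and GENCODE coding sequences were used. Programs that model raw counts were not used.

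Changes are on the log2 scale, after TMM-type scaling of the pair (outer 30% of ratios and outer 5% of expression dropped at either end), with a prior count of 1, a minimum of 20 counts in the pair and a threshold of 4-fold. Detection required 3 counts. Intervals are Poisson or binomial at 95%, on counts divided by counts per uniquely mapped read, a choice made after the data had been seen. In simulated data, 200 of 200 genes changed 8-fold were found in each pair, with 0 false calls among 15020 genes from NGOs to FGOs and 1 among 15422 from GO1 to GO2. The simulation holds counting noise only and says nothing of variation between pools.

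The members, gene lists and tests were chosen with earlier results of these data known. Named genes were the 10 members, family rows with at least 100 counts in a library, known partners, cell markers, and the 3 genes nearest in pattern to each of the 3 members with the highest RPKM in any library (Oog1, Oog3 and Oog4). Exceptions named after their values were seen are the Oog1 copies, Gm13083, Prame, Pramef12os and the pairs of members set in ratio. Alternatives covered totals, scaling, prior count, length, thresholds, minimum counts, thinning and window length. Python 3.11.15, numpy, pandas and scipy were used, and Biopython for alignments.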

Additional observations from a re-analysis of the deposited data

How the results depend on the processing

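With 1 library per stage, no replicate could be left out, and no paired analysis was possible because the stages share no replicates. Over 4 scalings, 3 prior counts and 2 choices of exon length, the 16 log2 changes of members with at least 20 counts in the pair kept their direction, and the only one that crossed 4-fold was that of Pramel1 from NGOs to FGOs (-1.74 with a prior count of 5). With 20 counts over the pair, 5 members were higher by 4-fold from NGOs to FGOs, against 8.56% of all genes. Pramel4 was among them and passed only through FGOs. With at least 20 counts in each library, 4 were higher, against 5.02% of genes. The number stayed within 1.5 times of 5 under the other scalings, prior counts, lengths, thresholds and minimum counts. It was 1 (Oog4) without members that share at least 10% of windows, a setting chosen after seeing the data. The number lower was 0 with a prior count of 5, at a threshold of 8-fold, with a minimum of 100 counts and with at least 20 counts in each library, the last also chosen after seeing the data. From GO1 to GO2, 1 member was higher at 2-fold, against 6.9% of all genes. Among the other family rows, 1 was lower from NGOs to FGOs with no minimum, against 7.53% of all genes. From GO1 to GO2, 1 was higher at 4-fold (Gm13083, against 1.53% of all genes) and 3 at 2-fold (against 6.9%). None was higher at 4-fold with a minimum of 100 counts or with at least 20 counts in each library. Dividing by counts on genes or by uniquely mapped reads moved all RPKM of a library by a common factor, and the summed level of the members in FGOs over NGOs was 5.6 with the deposited totals and between 5.14 and 5.38 otherwise. With intervals on counts, 4 in place of 3 members rose at each step, since Pramef12 was added. Depth limits the 5 Pramel genes, whose few counts may come from fewer reads. Shared windows were searched in annotated transcripts only, so copies outside the annotation were not searched.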
